A study of Mus musculus with 59 samples.

Results

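Mouse embryonic stem cells lacking Mettl3 were compared with parental cells by RNA sequencing at 37 °C. The comparison took 6 of the 12 libraries in the RNA table of these lines, out of 59 samples in the series: 4 Mettl3 knockout lines named 1d1, 3xU, 1d2 and 2c4d, and 2 parental libraries, parental_1 and parental_2. They were chosen by the genotype and temperature in their labels. All 6 came from a 129xC57Bl6 hybrid background and carried Rosa26:BirA, a biotin ligase at the Rosa26 locus, and DGCR8 with a FLAG/Avi tag, so the parental cells were not wild type; the 4 knockout lines differed from them by METTL3KO. The cells grew on gelatin with LIF-conditioned medium and serum, and total RNA was depleted of ribosomal RNA before ScriptSeq v2 libraries were made. The labels do not say how Mettl3 was disrupted, whether the 4 lines were derived independently, or whether parental_1 and parental_2 are different cultures or lines, so p-values here reflect scatter among these libraries alone. Between the parental libraries that scatter may be technical, while differences between the knockout lines recurred in separate libraries after 42 °C, as given below for Rian and chromosome 8. Libraries were treated as 2 sets, with parental_1, 1d1 and 3xU in set 1 and parental_2, 1d2 and 2c4d in set 2, and the set was a term of every fit unless stated.

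METTL3 is the catalytic subunit of the complex that writes N6-methyladenosine (m6A) into messenger RNA during transcription. Reader proteins of the YTH family bind the mark, and in the cytoplasm it commonly shortens the life of the transcript. In mouse embryonic stem cells the mark is known for its place on transcripts of pluripotency factors, and cells without METTL3 are known to leave the naive state poorly.

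Totals ran from 8667588 to 13579892 counts in knockout libraries and were 13257666 and 12959534 counts in parental_1 and parental_2. The mitochondrial ribosomal RNA mt-Rnr2 took 8.3 to 15.9% of counts in knockout libraries and 12.2 and 14.7% in parental libraries. The sets differed: the nuclear RNA Malat1 stood at 4884 to 8238 CPM (counts per 1e6 of a library's counts) in the 3 libraries of set 1 and at 1429 to 2105 in the 3 of set 2. On the second principal component, which held 29.8% of the variance, line 1d1 lay at -56.5 and parental_1 at -27.3. Line 1d2 lay at 44.2 on the other side. The counts called in gene lists are also given without 1d1. That omission called the most genes, 801, against 6, 0 and 0 without 3xU, 1d2 or 2c4d, so list counts without 1d1 come from the fit with the most calls among these. Of the embryonic stem cell markers, the core pluripotency list of 12 genes summed to 4070 to 4670 CPM in knockout lines and to 4930 and 5570 in parental cells. Feeder fibroblast markers summed to 9.98 to 17.3 in knockout lines and to 15.0 and 15.1 in parental cells over 12 genes, 1 of which had no count in any library.

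Mettl3 RNA was lower in every knockout line than in either parental library, but it was not abolished. It stood at 40.9 CPM (here and below scaled by TMM, edgeR's correction for library composition) in 1d1, 28.9 in 3xU, 21.7 in 1d2 and 29.4 in 2c4d, against 71.1 in parental_1 and 68.9 in parental_2. The groups did not overlap, and line 1d1 kept the highest level of the knockout lines. Its mean was 30.2 ± 7.94 CPM in knockout lines and 70.0 ± 1.55 CPM in parental cells (SD, n = 4 and 2). The log2 fold change of -1.23 ± 0.22 (SE) did not pass the edgeR quasi-likelihood test over all genes (adjusted p = 0.0941), and passed it in the fit of 12 libraries described next (adjusted p = 0.0158). Counts cover all exons of the gene and do not check the disrupted stretch.

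Of 15204 genes tested in the 6 libraries, 8 passed the edgeR test at an adjusted p of 0.05 (0.0526%). Only 1 rose in the knockout lines (0.00658%) and 7 fell (0.0460%). Many more genes stood apart without passing: 2903 genes (19.1%) had an unadjusted p under 0.05, 1517 higher (9.98%) and 1386 lower (9.12%), where 760 are expected by chance. In 4105 genes (27.0%) the 4 knockout values did not overlap the 2 parental ones, 2157 of them higher (14.2%) and 1948 lower (12.8%). Groups of 4 and 2 values also separate by chance in a sizeable share of genes, which was not computed here. A fit of all 12 libraries, which adds the same lines after 1 h at 42 °C and takes the contrast at 37 °C, called 791 of 15635 genes (5.06%), 408 higher (2.61%) and 383 lower (2.45%) in knockout lines. All 8 genes were among them. That fit counts each line at both temperatures, so it overstates the number of independent samples. With the line as a random effect 730 genes were called, 613 of them shared. The random effect used 1 correlation for all genes (0.593) and still took its degrees of freedom from 12 libraries. Its count can therefore also overstate the independent samples, and does not show how many calls would remain with lines as the units. Leaving out 1 library moved the 8 calls to between 0 and 801: no gene was called by edgeR without parental_1, parental_2, 1d2 or 2c4d, where 844, 1400, 2490 and 2143 genes had an unadjusted p under 0.05, while 6 were called without 3xU and 801 without 1d1. Of the 14913 genes tested without 1d1, 457 rose (3.06%) and 344 fell (2.31%), and DESeq2 on the 6 libraries called 538 higher (3.54%) and 376 lower (2.47%). Whatever the p, 50.5% of genes were higher and 49.5% lower in knockout lines; these shares are the background for the lists that follow.

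Fat2, an atypical cadherin of the FAT family (chr11:55250609-55337505, GRCm38.p6), was the gene that rose. It stood at 32.4 CPM in 1d1, 24.1 in 3xU, 20.5 in 1d2 and 19.8 in 2c4d, against 3.33 in parental_1 and 2.04 in parental_2. Every knockout line lay far above both parental libraries. The log2 fold change was 3.18 ± 0.26 (edgeR adjusted p = 0.0277), a 9.07-fold difference in the fit.

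Cubn and Pdgfra, both known from the primitive endoderm, were among the genes that fell. Cubn encodes cubilin, an endocytic receptor of the visceral endoderm (chr2:13276338-13491876). It stood at 3.91 CPM in 1d1, 1.48 in 3xU, 0.434 in 1d2 and 1.06 in 2c4d, against 48.0 in parental_1 and 23.0 in parental_2 (log2 fold change -4.49 ± 0.42, edgeR adjusted p = 0.0351). Pdgfra, a platelet-derived growth factor receptor (chr5:75151322-75198206), stood at 1.16 CPM in 1d1, 0.952 in 3xU, 0.955 in 1d2 and 1.59 in 2c4d, against 8.09 in parental_1 and 12.6 in parental_2 (log2 fold change -3.12 ± 0.32, adjusted p = 0.0424). For both genes all knockout lines lay well below both parental libraries.

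Tex15, known in mice for its roles in male meiosis and in transposon silencing in germ cells (chr8:33516689-33592503), fell to 24.5 CPM in 1d1, 15.7 in 3xU, 15.2 in 1d2 and 23.8 in 2c4d, against 146 in parental_1 and 148 in parental_2. Its log2 fold change was -2.89 ± 0.24 (edgeR adjusted p = 0.0277), and it was the most abundant in parental cells of the genes that fell by more than 4-fold. Srgn encodes serglycin, the core protein of secretory granule proteoglycans (chr10:62493833-62527445). It was at 0.423 CPM in 1d1, 0.106 in 3xU, 0.0868 in 1d2 and 0.228 in 2c4d, against 13.4 in parental_1 and 9.89 in parental_2 (log2 fold change -5.72 ± 0.45, adjusted p = 0.0277). The knockout lines were near the limit of detection, and Srgn, which lies below the level set for named genes, was named after its values were seen.

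Amer1, an APC-binding regulator that restrains Wnt signalling (chrX:95420313-95444840), fell to 8.24 CPM in 1d1, 12.5 in 3xU, 6.34 in 1d2 and 4.25 in 2c4d, against 53.3 in parental_1 and 31.6 in parental_2. Its log2 fold change was -2.47 ± 0.25 (edgeR adjusted p = 0.0424). Hook1, a linker between cargo and microtubule motors (chr4:95967181-96025412), had the tightest values: 127 CPM in 1d1, 122 in 3xU, 118 in 1d2 and 126 in 2c4d, against 308 in parental_1 and 294 in parental_2 (log2 fold change -1.29 ± 0.13, adjusted p = 0.0424). The transcript B230354K17Rik (chr17:45433831-45442544) averaged 14.5 ± 6.64 CPM in knockout lines and 77.5 ± 12.4 CPM in parental cells (SD, n = 4 and 2), with a log2 fold change of -2.54 ± 0.24 (adjusted p = 0.0351).

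**Figure D1:**
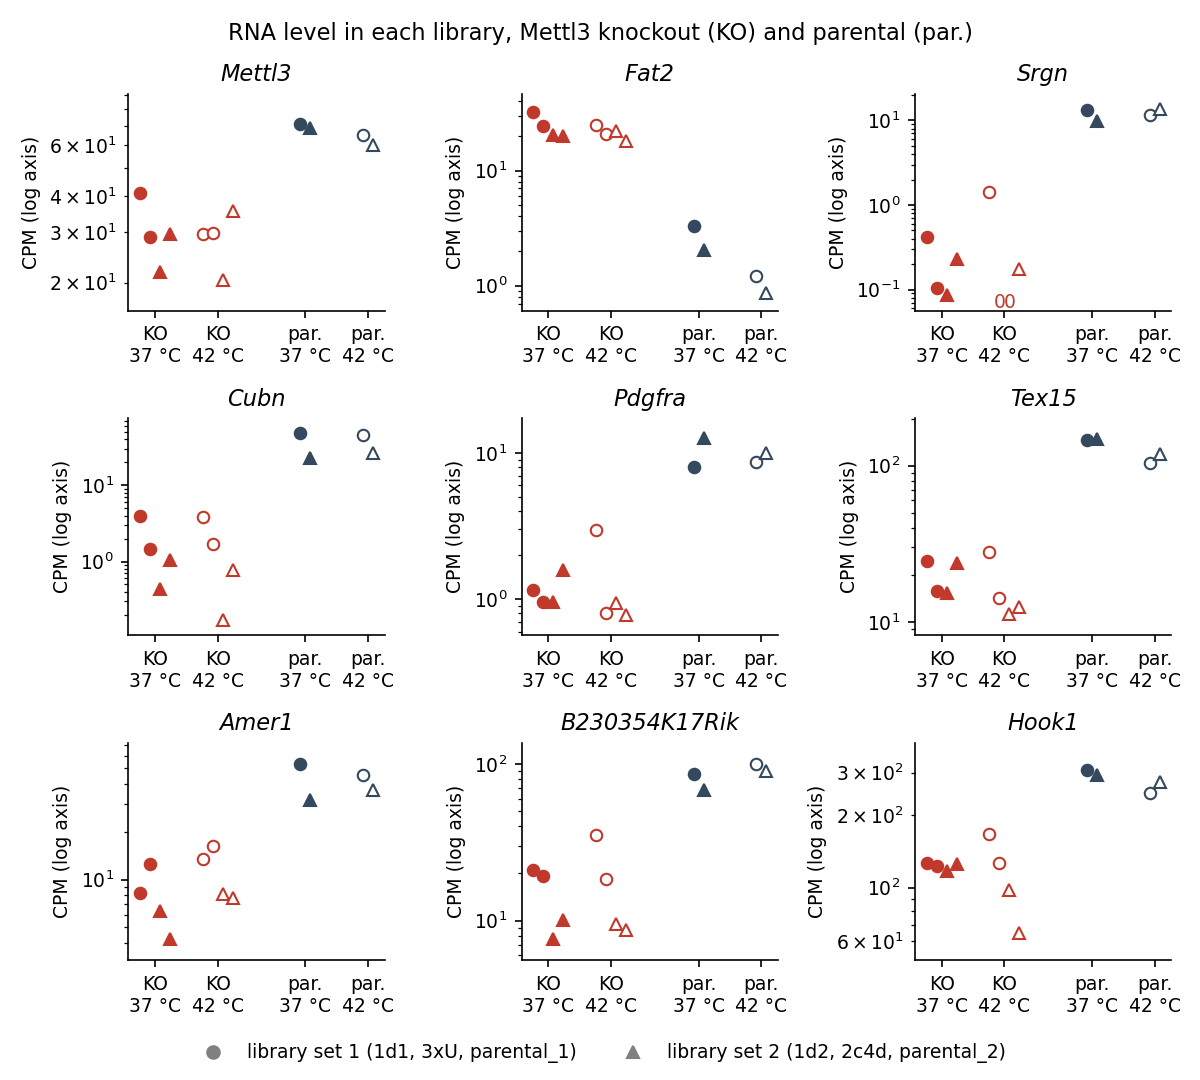
RNA level in CPM (log axis, 1 point per library) of Mettl3 and the 8 genes called at 37 °C, with knockout lines left of parental libraries, filled points at 37 °C, open points after 42 °C, and circles and triangles for library sets 1 and 2; a 0 marks a library without counts. In every panel the 4 knockout values at 37 °C lie on 1 side of the 2 parental values, as for Fat2 at 19.8 to 32.4 CPM in knockout lines against 2.04 and 3.33 CPM in parental libraries.

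Separate libraries of the same lines after 1 h at 42 °C gave a second measurement of the genotype difference. In them 1 of 14776 genes was called (0.00677%), again Fat2, and 2618 had an unadjusted p under 0.05 (17.7%). All 8 genes kept their direction there, each with an unadjusted p under 0.05. Fat2 stood at 24.7 CPM in 1d1, 20.6 in 3xU, 22.2 in 1d2 and 17.9 in 2c4d, against 1.23 in parental_1 and 0.871 in parental_2, with a log2 fold change of 4.35 ± 0.32 (edgeR adjusted p = 0.0104). Srgn had no counts in 3xU and 1d2 after 42 °C, which allows up to 0.305 and 0.257 CPM, and stood at 1.43 CPM in 1d1 and 0.173 in 2c4d, against 11.7 in parental_1 and 13.5 in parental_2. Of the 791 genes called in the fit of 12 libraries, 776 had the same direction after 42 °C and 747 had groups without overlap at 37 °C in the direction called, but that fit used both. The difference between the genotype effects at 42 °C and 37 °C was called for 0 of 15635 genes by edgeR (307 with an unadjusted p under 0.05, smallest adjusted p 0.427). That fit had no term for the line, so it did not use the pairing of each line across temperatures. Fewer genes than chance alone would give had an unadjusted p under 0.05. The test therefore cannot show that the effects were equal at both temperatures.

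**Figure D2:**
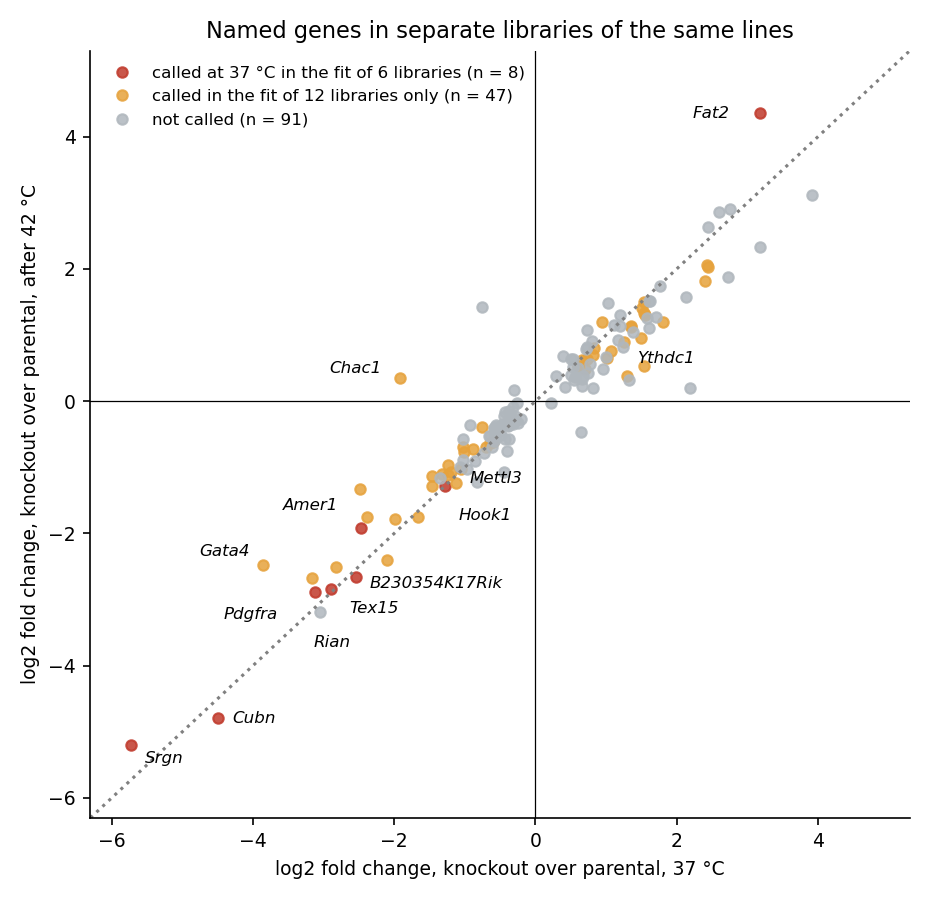
Log2 fold change of knockout over parental at 37 °C (x axis) and after 42 °C (y axis) for the named genes, 1 point per gene, with the dotted line marking equal values; red points passed at 37 °C in the fit of 6 libraries, orange points in the fit of 12 libraries only, and grey points in neither. Tex15 lies at -2.89 and -2.84, near the line, Fat2 above it at 3.18 and 4.35, and Chac1 far from it at -1.92 and 0.35.

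Further genes with no overlap between groups followed just behind the threshold in the 6 libraries, and the genes in this paragraph passed in the fit of 12. On the higher side stood Ythdc1, the nuclear m6A reader, at 381 CPM in 1d1, 473 in 3xU, 402 in 1d2 and 407 in 2c4d, against 179 in parental_1 and 171 in parental_2 (log2 fold change 1.25 ± 0.16, edgeR adjusted p = 0.0691 in 6 libraries and 0.00341 in 12). All 4 knockout lines had more than either parental library, as the choice of genes for this paragraph required. Phax, the export adaptor of small nuclear RNAs, averaged 322 ± 62.4 CPM in knockout lines and 114 ± 25.4 CPM in parental cells (SD, n = 4 and 2). Gli1, a transcription factor of Hedgehog signalling, Gucy1a2, a subunit of soluble guanylate cyclase, Mrc2, a collagen receptor, the ligand Fgf18 and the membrane protein Tmem132a were also higher, with log2 fold changes of 1.50, 2.45, 2.40, 2.43 and 1.54. The log2 fold change was 1.35 for Pakap and 1.36 for Akap2, which overlap and share reads, so they count as 1 signal.

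On the lower side, where the genes named also passed in 12 libraries, Meioc, a factor of meiotic germ cells, stood at 27.2 CPM in 1d1, 26.7 in 3xU, 24.3 in 1d2 and 20.0 in 2c4d, against 69.1 in parental_1 and 65.1 in parental_2 (log2 fold change -1.46 ± 0.17, edgeR adjusted p = 0.0656 in 6 libraries and 0.0127 in 12). Tug1, a long noncoding RNA, was at 66.1 CPM in 1d1, 73.1 in 3xU, 50.1 in 1d2 and 39.4 in 2c4d, against 174 in parental_1 and 112 in parental_2. Groups without overlap were a condition for naming both genes. Cyclin D3 (Ccnd3), Hmces, which binds abasic sites in single-stranded DNA, and the histone gene Hist1h2aa had log2 fold changes of -1.46, -1.13 and -2.49.

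Primitive endoderm genes made up the list whose members lay lowest. Of 15 listed, 14 were tested; 2 fell (Cubn and Pdgfra), none rose, 12 were lower and 2 higher, and 11 of the lower had an unadjusted p under 0.05, against 9.12% of all genes. The median log2 fold change was -1.85, against 0.0055 over all genes tested, and -1.63 for the list after 42 °C. In the fit of 12 libraries 6 members fell and 0 rose, against 2.45% of all genes that fell, and without 1d1 in the 6 libraries 9 fell and 1 rose, against 2.31% and 3.06% of all genes. Among them were transcription factors that drive this lineage. Gata4 stood at 0.423 CPM in 1d1, 0.106 in 3xU, 0.521 in 1d2 and 0.607 in 2c4d, against 6.13 in parental_1 and 5.97 in parental_2, and Gata6 at 1.06, 0.317, 0.521 and 0.379 CPM in the same knockout lines, against 4.16 and 5.97 in the same parental libraries. Both were called in the fit of 12 libraries (edgeR adjusted p = 0.00266 and 0.00807). Sox17 averaged 0.353 ± 0.343 CPM in knockout lines and 1.85 ± 0.0457 CPM in parental cells, and Sox7 1.82 ± 0.828 and 8.42 ± 1.85 CPM in the same order (SD, n = 4 and 2); both were also called in that fit. Basement membrane genes of this lineage were lower without being called, as for Col4a1 at a log2 fold change of -1.29 ± 0.34, and the 2 higher members were Foxa2, at 0.740 to 9.94 CPM in knockout lines against 0.454 and 1.14 in parental cells, and Sparc, at 445 to 697 CPM in knockout lines against 367 and 511 CPM in parental cells. Summed over the 15 genes, levels were 639 to 1130 CPM in knockout lines and 988 and 979 CPM in parental cells, so the sum overlapped, while Gata4, Gata6, Sox17 and Sox7 did not. The RNAs of these factors are rare, and in bulk RNA fewer cells of a type cannot be told apart from less RNA per cell.

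Trophectoderm genes lay on the other side. All 9 tested of 10 were higher, 7 with an unadjusted p under 0.05 against 9.98% of all genes, and the median log2 fold change was 1.76 at 37 °C and 1.44 after 42 °C. None was called by edgeR in 6 or 12 libraries or without 1d1, and 4 were called by DESeq2, against 3.54% of all genes. Krt18, a keratin of simple epithelia, stood at 24.8 CPM in 1d1, 34.1 in 3xU, 32.5 in 1d2 and 112 in 2c4d, against 12.1 in parental_1 and 15.0 in parental_2 (log2 fold change 1.76 ± 0.53). The T-box factor Eomes stood at 5.49, 3.28, 8.07 and 5.54 CPM in these lines, against 1.74 and 2.53 in these parental libraries (log2 fold change 1.38 ± 0.37). Neither overlapped, while Hand1 and Tfap2c did. Summed over the list, levels were 73.4 to 213 CPM in knockout lines and 44.1 and 51.1 CPM in parental cells.

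Germline genes, which are normally silenced by promoter methylation in somatic cells and expressed at low level in stem cells, were mostly lower. Of 12 tested of 13 listed, none was called in 6 libraries; 10 were lower, against 49.5% of all genes, and 7 of them had an unadjusted p under 0.05, against 9.12%. The median log2 fold change was -1.07 (-1.25 after 42 °C). In the fit of 12 libraries 5 fell, against 2.45% of all genes: Mael, Slc25a31, Dazl, Sycp1 and Sycp3. Without 1d1 in 6 libraries 3 fell, against 2.31% of all genes, and DESeq2 called 5 lower, against 2.47%. Mael, a piRNA pathway factor, stood at 1.06 CPM in 1d1, 1.59 in 3xU, 4.86 in 1d2 and 0.834 in 2c4d, against 12.4 in parental_1 and 15.4 in parental_2 (log2 fold change -2.82 ± 0.58). The synaptonemal complex gene Sycp1 stood at 3.91, 3.17, 7.98 and 4.70 CPM in these lines, against 10.4 and 21.3 in these parental libraries. Slc25a31, a testis ADP/ATP carrier, ranged from 0.529 to 0.986 CPM in knockout lines, against 3.25 and 3.92 CPM in parental cells. None of these 3 had overlapping groups. Line 1d2 kept the highest level of Mael, Sycp1 and Dazl among the knockout lines.

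The promoters of this list were read for the E-box CACGTG, a palindrome searched on both strands. The list and the motif were chosen after the values were seen. It was found in 9 of the 11 tested members with a RefSeq window of 250 bases before to 50 after the gene start, and in 6 of the 7 lower members with an unadjusted p under 0.05. Of all 32851 windows 7.15% held it, and of 27025 genes 8.09%. No windows matched for CG content were compared, and a relation between the motif and the lower values was not tested. A match describes the letters and is no evidence of binding. The 250 bases before the start of 3 lower members are shown 5′ to 3′ on the gene's strand from RefSeq on GRCm38.p6, with the E-box in capitals; its first base lies 223 bases before the start in Mael, 94 in Sycp1 and 93 in Slc25a31.
Mael, chr1:166238745-166238994, minus strand: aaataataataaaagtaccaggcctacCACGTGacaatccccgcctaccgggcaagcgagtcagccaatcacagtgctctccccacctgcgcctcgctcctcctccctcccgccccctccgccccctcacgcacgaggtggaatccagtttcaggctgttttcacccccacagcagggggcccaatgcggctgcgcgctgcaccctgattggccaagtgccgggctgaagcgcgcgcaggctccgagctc
Sycp1, chr3:102936101-102936350, minus strand: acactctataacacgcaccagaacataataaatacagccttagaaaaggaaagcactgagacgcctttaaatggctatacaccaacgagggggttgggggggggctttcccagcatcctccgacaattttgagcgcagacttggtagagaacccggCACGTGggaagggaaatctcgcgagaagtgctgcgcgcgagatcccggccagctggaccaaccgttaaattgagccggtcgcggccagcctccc
Slc25a31, chr3:40708621-40708870, plus strand: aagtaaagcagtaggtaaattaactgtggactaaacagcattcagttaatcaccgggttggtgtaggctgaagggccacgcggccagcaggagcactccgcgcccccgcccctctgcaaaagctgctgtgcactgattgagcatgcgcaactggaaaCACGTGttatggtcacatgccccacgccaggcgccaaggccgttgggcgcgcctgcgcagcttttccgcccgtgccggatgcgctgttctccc
Dazl, also lower, held no such motif in its window.

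Genes of the m6A pathway did not move as 1 group. Of 8 genes of the writer complex, which include the disrupted gene Mettl3, 0 were called by edgeR in 6 libraries. DESeq2 called 1 higher and 1 lower, against 3.54% and 2.47% of all genes. In the fit without 1d1 also 1 rose and 1 fell, against 3.06% and 2.31%. The lower gene was Mettl3 itself in both fits, so no other writer gene was called lower. Mettl3 is also among the lower members counted next. Of the 8, 5 were higher and 3 lower, with a median log2 fold change of 0.16. An unadjusted p under 0.05 was reached by 1 higher and 2 lower members, against 9.98% and 9.12% of all genes. Wtap, the adaptor that localises the complex, stood at 186 CPM in 1d1, 124 in 3xU, 125 in 1d2 and 112 in 2c4d, against 81.9 in parental_1 and 71.0 in parental_2 (log2 fold change 0.83 ± 0.20; edgeR adjusted p = 0.119 in 6 libraries and 0.0327 in 12). Mettl14, the partner of METTL3 in the catalytic core, overlapped between groups at 31.1 to 46.7 CPM in knockout lines and 43.7 and 46.1 CPM in parental cells. Among 13 readers and erasers 0 were called by edgeR in 6 libraries, and 4 had an unadjusted p under 0.05, against 19.1% of all genes. By DESeq2, without 1d1 and in 12 libraries 2 rose each, against 3.54%, 3.06% and 2.61% of all genes. The 2 in 12 libraries were the readers Ythdc1, given above, and Ythdf2. Ythdf2, which recruits decay enzymes, averaged 287 ± 34.4 CPM in knockout lines and 149 ± 21.9 CPM in parental cells (SD, n = 4 and 2; log2 fold change 0.95 ± 0.14, edgeR adjusted p = 0.0838 in 6 libraries and 0.00929 in 12). The demethylases Fto and Alkbh5 had log2 fold changes of 0.15 ± 0.29 and 0.33 ± 0.14 and were not called in either fit.

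Most naive and core pluripotency genes had lower values, but few were called. Of 16 naive genes 13 were lower, against 49.5% of all genes, 5 with an unadjusted p under 0.05, against 9.12%, and the median log2 fold change was -0.39. None was called by edgeR in 6 libraries, 1 by DESeq2, and Stat3 alone in 12, while 3 fell without 1d1, against 2.31% of all genes. Stat3, which relays LIF signals, averaged 79.9 ± 10.4 CPM in knockout lines and 124 ± 4.83 CPM in parental cells (SD, n = 4 and 2). Nanog ranged from 238 to 745 CPM in knockout lines, around 403 and 538 CPM in parental cells. Klf4 stood at 48.6 CPM in 1d1, 101 in 3xU, 164 in 1d2 and 88.7 in 2c4d, against 235 in parental_1 and 154 in parental_2, so that 1d2 overlapped the parental libraries. Of 12 core genes 9 were lower and 3 higher, 3 and 2 of them with an unadjusted p under 0.05, against 9.12% and 9.98% of all genes. Without 1d1 2 fell, against 2.31%. Dppa5a was called lower in 12 libraries (log2 fold change -1.19 ± 0.22, edgeR adjusted p = 0.0253), and Pou5f1 stood at -0.30 ± 0.21. Sall4 was higher without overlap, at 630 to 757 CPM in knockout lines against 502 and 509 CPM in parental cells, and was not called in 6 or 12 libraries. Among 11 formative and primed genes 9 were higher, against 50.5% of all genes, and 3 of them had an unadjusted p under 0.05, against 9.98%. None was called by edgeR in 6 or 12 libraries and 1 by DESeq2, while 2 rose without 1d1, against 3.06% of all genes. The POU factor Pou3f1 stood at 7.19 CPM in 1d1, 60.5 in 3xU, 10.5 in 1d2 and 21.3 in 2c4d, against 3.86 in parental_1 and 3.19 in parental_2.

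p53 target genes were mostly higher. Of 21 tested, 18 were higher, 11 with an unadjusted p under 0.05 against 9.98% of all genes, and the median log2 fold change was 0.73 (0.56 after 42 °C). None was called by edgeR in 6 libraries, 3 rose in the fit of 12 (Cdkn1a, Aen and Ccng1), 8 by DESeq2 and 11 in 6 libraries without 1d1, against 2.61%, 3.54% and 3.06% of all genes. Cdkn1a, the cyclin-dependent kinase inhibitor p21, stood at 17.6 CPM in 1d1, 23.3 in 3xU, 14.5 in 1d2 and 14.4 in 2c4d, against 9.23 in parental_1 and 5.23 in parental_2 (log2 fold change 1.30 ± 0.24). Aen, an apoptosis-enhancing nuclease, averaged 133 ± 7.95 CPM in knockout lines and 75.9 ± 8.27 CPM in parental cells (SD, n = 4 and 2). The groups of both genes were separate. Line 1d1 lay lowest of the knockout lines for 16 of the 21, as for Mdm2, the ubiquitin ligase of p53, at 197 CPM in 1d1, 323 in 3xU, 236 in 1d2 and 215 in 2c4d, against 129 in parental_1 and 140 in parental_2. The pro-apoptotic targets Bax, Pmaip1 and Bbc3 overlapped between groups.

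Genes of the integrated stress response, the programme of amino acid shortage and ATF4, were mostly lower. Of 19 tested 15 were lower, 7 with an unadjusted p under 0.05 against 9.12% of all genes. The median log2 fold change was -0.57 (-0.35 after 42 °C). None was called by edgeR in 6 libraries. In 12 libraries 5 fell, by DESeq2 5 fell, and in the 37 °C fit without 1d1 2 fell and 1 rose. Of all genes 2.45%, 2.47% and 2.31% fell in these fits. Asns, asparagine synthetase, stood at 140 CPM in 1d1, 69.9 in 3xU, 119 in 1d2 and 125 in 2c4d, against 265 in parental_1 and 268 in parental_2 (log2 fold change -1.24 ± 0.26, edgeR adjusted p = 0.0281 in 12 libraries). The cationic amino acid transporter Slc7a3 averaged 72.0 ± 13.6 CPM in knockout lines and 145 ± 9.79 CPM in parental cells (SD, n = 4 and 2). Both genes were separate between groups, while Atf4 itself was not, at 198 to 354 CPM in knockout lines and 275 and 334 CPM in parental cells. Chac1, a glutathione-degrading enzyme, stood at 2.12 to 3.04 CPM in knockout lines, against 18.2 in parental_1 and 4.66 in parental_2, so that parental_1 alone lay far above the knockout lines; the log2 fold change was -1.92 ± 0.45 at 37 °C and 0.35 after 42 °C.

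**Figure D3:**
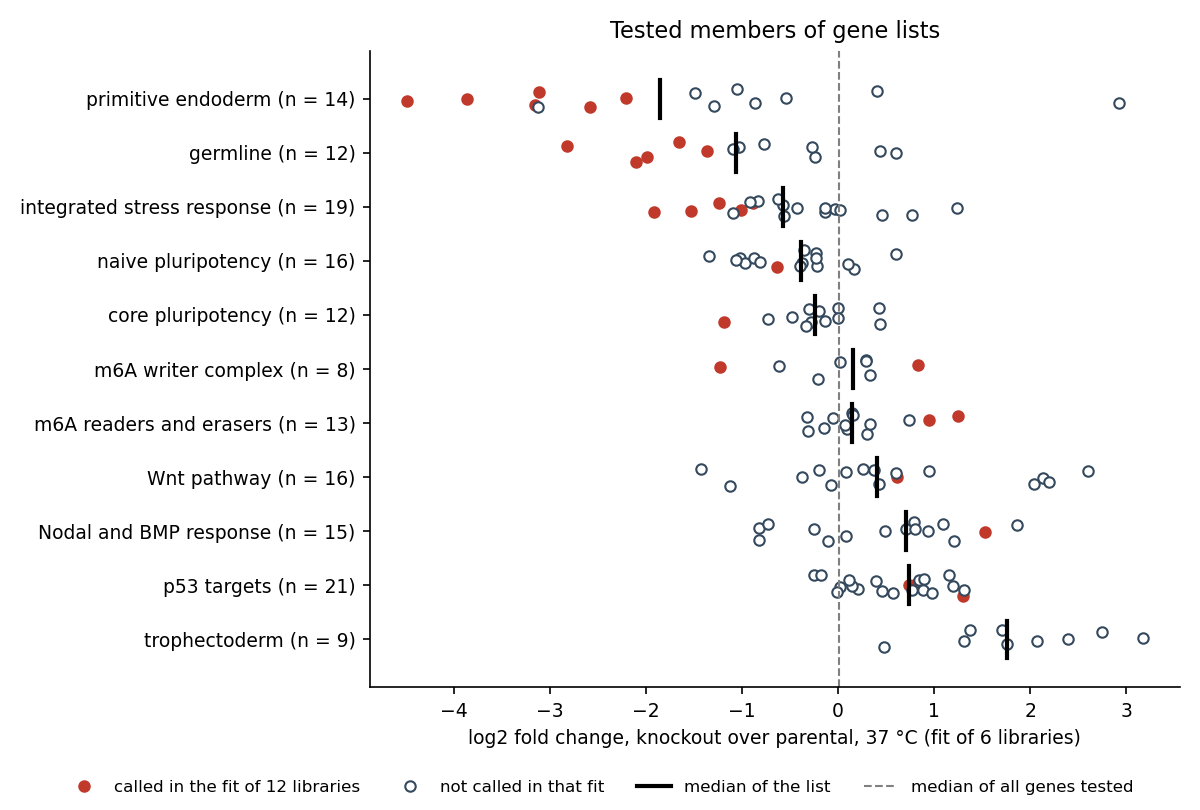
Log2 fold change of knockout over parental at 37 °C (x axis) of each tested member of 11 gene lists, with a bar at each list's median and a dashed line at the median of all genes tested (0.0055); red points were called in the fit of 12 libraries. Primitive endoderm genes (median -1.85) and germline genes (-1.07) lie left of the line and trophectoderm genes (1.76) and p53 targets (0.73) right of it.

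Signalling lists were mixed. Of 15 genes of the Nodal and BMP response 10 were higher and 5 lower, 7 and 3 of them with an unadjusted p under 0.05, against 9.98% and 9.12% of all genes. In the fit without 1d1 2 rose and 2 fell, against 3.06% and 2.31% of all genes. Id3, a BMP target, averaged 29.4 ± 4.46 CPM in knockout lines and 10.3 ± 2.84 CPM in parental cells (SD, n = 4 and 2) and was the member called in 12 libraries, while Bmp4 was lower at 42.1 to 80.8 CPM in knockout lines against 122 and 125 CPM in parental cells. Of 16 Wnt pathway genes 11 were higher, against 50.5% of all genes, and 5 lower. An unadjusted p under 0.05 was reached by 6 higher and 1 lower members, against 9.98% and 9.12% of all genes. In the fit without 1d1 3 rose, against 3.06%. Axin1 was called in 12 libraries (log2 fold change 0.61 ± 0.16). Lef1 stood at 3.80 CPM in 1d1 and 11.1 to 42.3 CPM in the other lines, against 3.18 and 2.78 CPM in parental cells. Of 17 apoptosis genes 12 were higher and 5 lower, with a median log2 fold change of 0.15. An unadjusted p under 0.05 was reached by 4 higher and 1 lower members, against 9.98% and 9.12% of all genes. In 12 libraries 2 were called higher and 1 lower, against 2.61% and 2.45%. The higher 2 were Bad and Bcl2l1 (log2 fold changes 1.54 ± 0.28 and 1.07 ± 0.22 in 6 libraries). In the fit without 1d1 3 rose and 0 fell, against 3.06% and 2.31%. Of 19 interferon and double-stranded RNA response genes 11 were higher and 8 lower, close to the shares over all genes, and the median log2 fold change was 0.15. An unadjusted p under 0.05 was reached by 4 higher and 1 lower members, against 9.98% and 9.12% of all genes. Groups did not overlap for 5 higher and 2 lower members, against 14.2% and 12.8%. Mavs and Oas1a were called higher in 12 libraries (log2 fold changes 1.01 ± 0.19 and 1.55 ± 0.35), against 2.61% of all genes. In the fit without 1d1 1 gene rose, against 3.06%. The RNA sensor gene Ddx58 was lower without overlap at a log2 fold change of -0.97 and was not called.

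The knockout lines differed widely from each other at imprinted noncoding RNAs. Rian, of the Dlk1-Dio3 locus, stood at 434 CPM in 1d1, 0.317 in 3xU, 1.65 in 1d2 and 3.11 in 2c4d, against 149 in parental_1 and 92.1 in parental_2. Meg3 of the same locus stood at 160, 0.423, 0.694 and 0.152 CPM in these lines, against 51.8 and 12.5 in these parental libraries. Mirg had 72.7 CPM in 1d1, no counts in 3xU (which allows up to 0.323 CPM), 0.174 in 1d2 and 0.152 in 2c4d, against 17.7 in parental_1 and 7.68 in parental_2. Line 1d1 was above both parental libraries and the other 3 lines were far below, so the groups overlapped and the log2 fold change of Rian, -3.05 ± 2.32, was not called (edgeR adjusted p = 0.509). After 42 °C Rian stood at 582 CPM in 1d1, 0.809 in 3xU, 0.854 in 1d2 and 3.12 in 2c4d, against 143 in parental_1 and 97.1 in parental_2, in the same order of lines. H19, an imprinted RNA at another locus, likewise stood at 268 CPM in 1d1 and 0.212 to 3.03 in the other lines, against 8.09 and 24.2 in parental cells.

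Median levels of whole chromosomes shifted in some lines, and some shifts were alike in more than 1 line. Over expressed genes, the median log2 ratio of a line over the parental library of its set lay beyond 0.25 on 5 of 20 chromosomes in 1d1, 1 in 3xU, 1 in 1d2 and 2 in 2c4d, and on 4, 1, 1 and 2 of these also after 42 °C with the same sign. In 1d1 the median was -0.54 on chromosome 1 (617 genes, 81.5% of them lower), -0.48 on chromosome 14 and 0.40 on chromosome 11. On chromosome 8 it was 0.28 in 1d1, -0.49 in 3xU, -0.56 in 1d2 and -0.14 in 2c4d (570 genes). Lines 3xU and 1d2, which are in different sets, also lay close together on chromosome 3 (-0.218 and -0.212) and on chromosome 14 (0.204 and 0.246). Whether these lines share an origin was not tested. Parental_1 over parental_2 stayed between -0.15 and 0.03 on every chromosome. Tex15 lies on chromosome 8 and Fat2, Meioc and Tug1 on chromosome 11; the log2 ratio of Tex15 was -2.57 in 1d1, where the median of chromosome 8 was above 0, and -3.27 in 1d2, where it was below. Mettl3 and Gata4 lie on chromosome 14. The part of these shifts in the results for single genes was not tested.

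**Figure D4:**
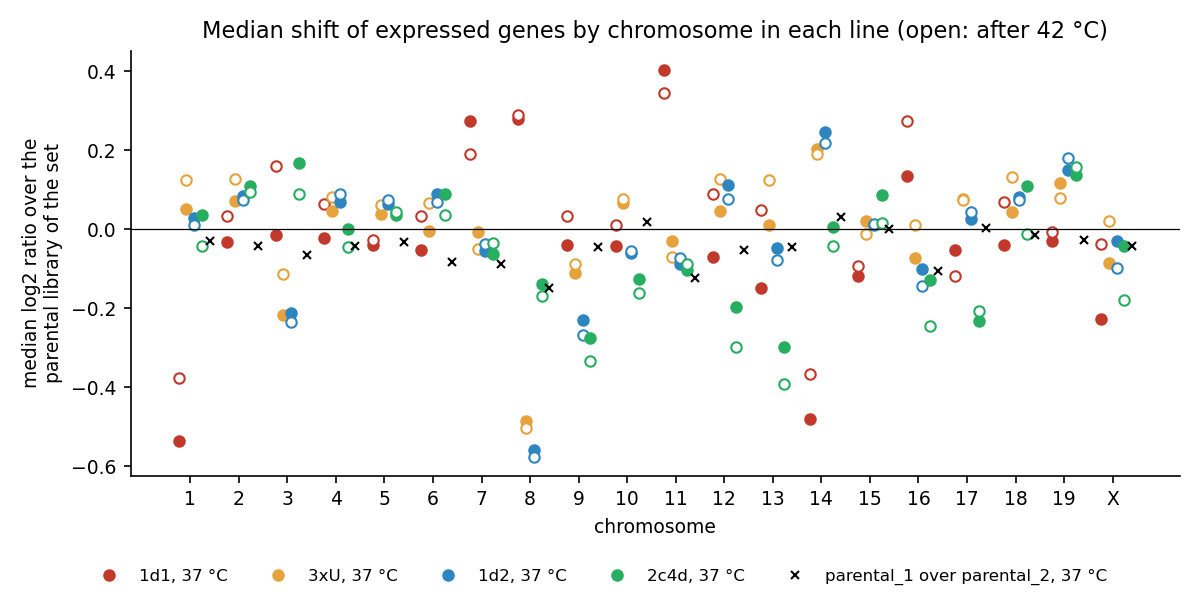
Median log2 ratio of each knockout line over the parental library of its set by chromosome (x axis), over expressed genes; filled points are at 37 °C, open points after 42 °C, and crosses give parental_1 over parental_2 at 37 °C. At 37 °C lines 3xU and 1d2 lie at -0.49 and -0.56 on chromosome 8 and 1d1 at -0.54 on chromosome 1, against -0.50, -0.57 and -0.38 after 42 °C.

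METTL3 occupancy on chromatin was measured in the same series in 2 clones, with 2 streptavidin precipitates and 1 input each, as counts in 5 kb windows. Over the windows of a gene, the median of the log2 ratio of precipitate over input was 0.14 for the 8 called genes, 0.08 for 361 genes called lower and -0.17 for 395 called higher in the fit of 12 libraries, against -0.04 for all 14114 genes placed. Amer1 had a mean ratio of 0.74, the 96.6th percentile of genes, Tex15 0.47 and Cubn 0.43, whereas Pdgfra had -0.82. The other called genes stood at 0.18 for Hook1, 0.11 for Srgn, -0.02 for B230354K17Rik and -0.21 for Fat2. The precipitates came from other cells than the RNA, neighbouring genes share windows, and the ratios are a description without a test. For the first precipitate and the input of each clone the titles, which were followed, conflict with the source names.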

How the data were processed

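The authors deposited raw counts of reads per gene over exons for 12 RNA libraries, and counts per 5 kb window for the METTL3 precipitates and inputs; both were whole numbers and were used as deposited. Per the submitters' processing notes, the tool was Bowtie and the build mm10; the aligner's version, the annotation and the use of strand are not given in the sources used here, so overlapping and antisense genes cannot be told apart. Of 39017 identifiers, 37607 matched a symbol.

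The 6 libraries at 37 °C were fitted with edgeR 4.0.16 in R 4.3.3 (filterByExpr by genotype, TMM, quasi-likelihood F test, Benjamini-Hochberg adjustment over all genes tested, threshold 0.05) with genotype and library set as terms. The set comes from the description of the comparison, not from the labels; set deviations of parental and knockout libraries correlated at 0.464 across genes. Standard errors were the log2 fold change over the square root of F. Limits for libraries without counts are 3 counts per library and cover counting error only. The script was tested on simulated data. Alternatives were DESeq2 1.42.0, voom of limma 3.58.1, 12 libraries, other normalisation and filters, and each library left out.

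Named genes were Mettl3, up to 10 per direction with mean log2 CPM no lower than 2 and no overlap between groups (called genes by size, then others by smallest p), and up to 4 per list by smallest p; further list members were named after their values were seen. Genes and lists were chosen with earlier results of these data known. Ratios of precipitate over input used CPM with a pseudocount of 1 and genes with at least 10 input counts. Promoter sequences are from RefSeq. The result of 1 apoptosis gene is not reported here.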

Additional observations from a re-analysis of the deposited data

Results flagged for a closer look

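Among the 4 knockout lines at 37 °C, 168 sets of values (148 named genes and 20 chromosome medians) were screened for 1 line far from the other 3, and 10 met the criterion. A rate of 1 in 20 would give 8.4 of 168. Many of the genes were named for a small p or for groups without overlap, so that rate need not hold for them. The number flagged therefore does not decide whether single sets arose by chance. Line 1d1 accounted for 5 of the 10. Rian stood at 434 CPM in 1d1, against 0.317 to 3.11 CPM in the other lines, and Bmp4 at 42.1 CPM in 1d1, against 79.1 to 80.8 CPM in the others. The chromosome medians of 1d1 over its parental library were -0.535 on chromosome 1, 0.275 on chromosome 7 and 0.403 on chromosome 11, with the other lines at 0.029 to 0.052, -0.063 to -0.008 and -0.102 to -0.03. After 42 °C the medians of 1d1 on these chromosomes were -0.377, 0.19 and 0.346.

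In 2c4d, Krt18 stood at 112 CPM, against 24.8 to 34.1 CPM in the other lines, and the growth factor Igf2 at 43.1 CPM, against 5.82 to 7.61 CPM. In 1d2, the germline RNA-binding gene Dazl stood at 7.12 CPM, against 2.65 to 3.17 CPM, and the RNase P RNA Rpph1 at 1580 CPM, against 1140 to 1190 CPM. In 3xU, the immediate early gene Jun stood at 23.5 CPM, against 9.83 to 11.0 CPM.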

How the results depend on the processing

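Without the library set as a block, the 8 calls at 37 °C became 4 in 6 libraries and 141 in 12, against 791 in 12 libraries with it; after 42 °C the single call stayed with and without the block. The count was 32 with no filter on low counts, 13 with voom, 914 with DESeq2 (734 after 42 °C), and 0 in set 1 alone or set 2 alone, where 661 and 1430 genes had an unadjusted p under 0.05. Leaving out 1 library gave 0 to 801 calls. Fits with 1 parental library assume that it varies like the knockout lines. Added after seeing the data, 12 libraries with the line as a random effect gave 730 calls (consensus correlation 0.593), and 12 libraries without 1d1 gave 1917. All 8 genes were among the calls of these last fits and of DESeq2, voom and the fit without 1d1; with library totals in place of TMM, 7 of the 8 were among 9 calls. Of the values of named genes under the alternatives, 2589 kept direction and side of the threshold, 304 came to pass it, 55 no longer passed and 3 reversed: Kdr, never called, to -0.00082 without parental_1, and Rian to 0.54 in set 1 alone and 0.54 without parental_2. The cause was not tested. With 3 residual degrees of freedom in 6 libraries, genes with few counts, such as most endoderm and germline members, are measured least precisely.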

Other observations

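Cell cycle genes were mixed: of 24 tested, 16 were lower and 8 higher, against 49.5% and 50.5% of all genes. In the fit without 1d1 1 fell and 3 rose, against 2.31% and 3.06% of all genes. In the fit of 12 libraries 2 were called lower, Ccnd3 and the mitotic cyclin Ccnb2, against 2.45% of all genes. Cdkn1a was the 1 member called higher there, against 2.61%. Cyclin D2 (Ccnd2) stood at 96.2 CPM in 1d1, 278 in 3xU, 284 in 1d2 and 109 in 2c4d, against 67.9 in parental_1 and 45.9 in parental_2, with no overlap but a wide spread among the knockout lines. Of 6 neuroectoderm genes tested, 4 were higher and 2 lower. Sox1 stood at 3.70 CPM in 1d1, 3.17 in 3xU, 3.65 in 1d2 and 1.74 in 2c4d, against 13.3 in parental_1 and 18.6 in parental_2. It was the 1 member called lower in the fit of 12 libraries, against 2.45% of all genes, and 0 were called higher. Pax6 and Nes overlapped between groups. Of 19 Polycomb genes 14 were lower, against 49.5% of all genes, and 1 fell without 1d1, against 2.31%. Eed, a core subunit of Polycomb repressive complex PRC2, averaged 191 ± 28.0 CPM in knockout lines and 311 ± 59.6 CPM in parental cells (SD, n = 4 and 2). Eed was the 1 Polycomb member called lower in the fit of 12 libraries, against 2.45% of all genes, and 0 were called higher.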
